A study of Mus musculus with 6 samples.

Results

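Mitochondrial carriers move metabolites, nucleotides, cofactors and iron across the inner mitochondrial membrane. The genes described here are the protein-coding genes of the mouse table whose symbol begins with Slc25a, together with the uncoupling proteins Ucp1, Ucp2 and Ucp3 and the pyruvate carrier subunits Mpc1 and Mpc2. There were 52 such genes among 22046 protein-coding entries and 54532 entries in all, and 38 of them had a mean level of at least 1 FPKM, which is fragments per kilobase of gene length, scaled to the size of the library. The rule uses the name and the level over all libraries, not the comparison between groups.

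The RNA came from RAW264.7, a mouse macrophage line that grew from a virus-induced tumour and is a single transformed line, not primary cells. All cells were cultured for 3 d. The Gel/S group, the control, was kept static with GelMA, a gelatin hydrogel bearing methacryloyl groups. The C/D group was kept with GelMA/PEDOT:PSS, which is GelMA with a conducting polymer, plus PLLA/PDA, under 5 min of ultrasound at 48 kHz. Each group had 3 libraries, and whether these are separate cultures is not given in the labels, so each p-value reflects the spread among these libraries alone, and that spread may be technical. Gel, PLLA/PDA and ultrasound change together, so their effects cannot be told apart. The columns whose names begin with US were read as ultrasound and thus as C/D, and every direction below rests on that reading.

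Most carriers of the SLC25 family share a fold of 3 repeats, each of a pair of helices, that opens to 1 side of the membrane at a time and swaps 1 solute for another. Adenine nucleotide carriers exchange ATP for ADP, the citrate carrier hands carbon to lipid synthesis in the cytosol, the aspartate/glutamate carriers take part in the shuttle that brings electrons of NADH into the matrix, and mitoferrins bring in iron for haem and iron-sulphur clusters. The pyruvate carrier is a small membrane protein pair of a different family and opens the way from glycolysis to the TCA cycle. Macrophages depend on several of these routes, among them citrate export, for lipid and mediator synthesis.

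Libraries held 12818831 to 16525699 counts. The share of counts from the mitochondrial genome was 7.34 ± 1.72% in Gel/S and 9.84 ± 0.606% in C/D (SD, n = 3; exact 2-sided permutation p = 0.1, and no lower p is possible with 3 libraries against 3). All 10 macrophage markers looked up were at 1 FPKM or more, with a summed level of 13820 to 14477 FPKM in Gel/S and 11313 to 11512 FPKM in C/D. Of 6 osteoclast markers 4 were at 1 FPKM or more, with sums of 55.7 to 57.4 FPKM in Gel/S and 45.7 to 51.1 FPKM in C/D, and the calcitonin receptor gene Calcr was listed at 0. Markers of fibroblasts, T cells, B cells, endothelium and epithelium were under 1 FPKM in all cases, and 4 of 6 fibroblast genes, among them Col1a2 and Dcn, were at 0. The sums rest on a few genes: Lyz2 had a mean of 10197 FPKM in Gel/S and 8024 in C/D and Dcstamp 29.9 and 14.9, while Itgam (61.9 and 68.3), Mpeg1 (299 and 310) and Acp5 (14.8 and 20.8) had higher means in C/D. Mitochondrial share and marker sums move with the groups, and their part in the results below was not tested. In bulk RNA, fewer cells of a kind and less RNA per cell cannot be told apart.

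Macrophages of C/D held more mRNA for both mitoferrins, Slc25a37 and Slc25a28, and less for the citrate carrier Slc25a1, the aspartate/glutamate carrier Slc25a13, the ATP-Mg/phosphate carrier Slc25a25 and the oxoglutarate carrier Slc25a11. Mpc2, Slc25a20, Slc25a35 and Slc25a36 also rose, while the carriers with the highest FPKM, Slc25a5, Ucp2, Slc25a4, Slc25a3 and Slc25a39, did not pass the test. Of the 38 members, 6 rose and 4 fell below an adjusted p of 0.05 (quasi-likelihood test of edgeR on the counts, with Benjamini-Hochberg adjustment over 11708 genes), which is 26.3% of the members against 27.0% of all genes tested. The share that rose was 15.8% against 13.1% of all genes, and the share that fell was 10.5% against 13.9%, so the family as a whole was called about as often as other genes. No member reached a 2-fold change. The median log2 fold change, positive where C/D is higher, was −0.07 for the members and 0.01 for all tested genes, and the median size was 0.21 and 0.24.

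The split stayed at 6 risen and 4 fallen members with RLE scaling factors and with no scaling factor, and limma on log2(FPKM + 1) gave 5 and 4. On values rescaled to the same sum in each library (TPM), limma called 1 member higher and 6 lower. Over all genes that setting called 633 higher and 1510 lower, and the median of all genes lay at −0.12 in place of 0.01. For 18 members the groups did not overlap, that is, all C/D values lay above or all lay below the Gel/S values (47.4%, against 46.2% of all genes). Of these, 9 were higher in C/D (23.7%, against 19.1%) and 9 lower (23.7%, against 27.1%).

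**Figure D1:**
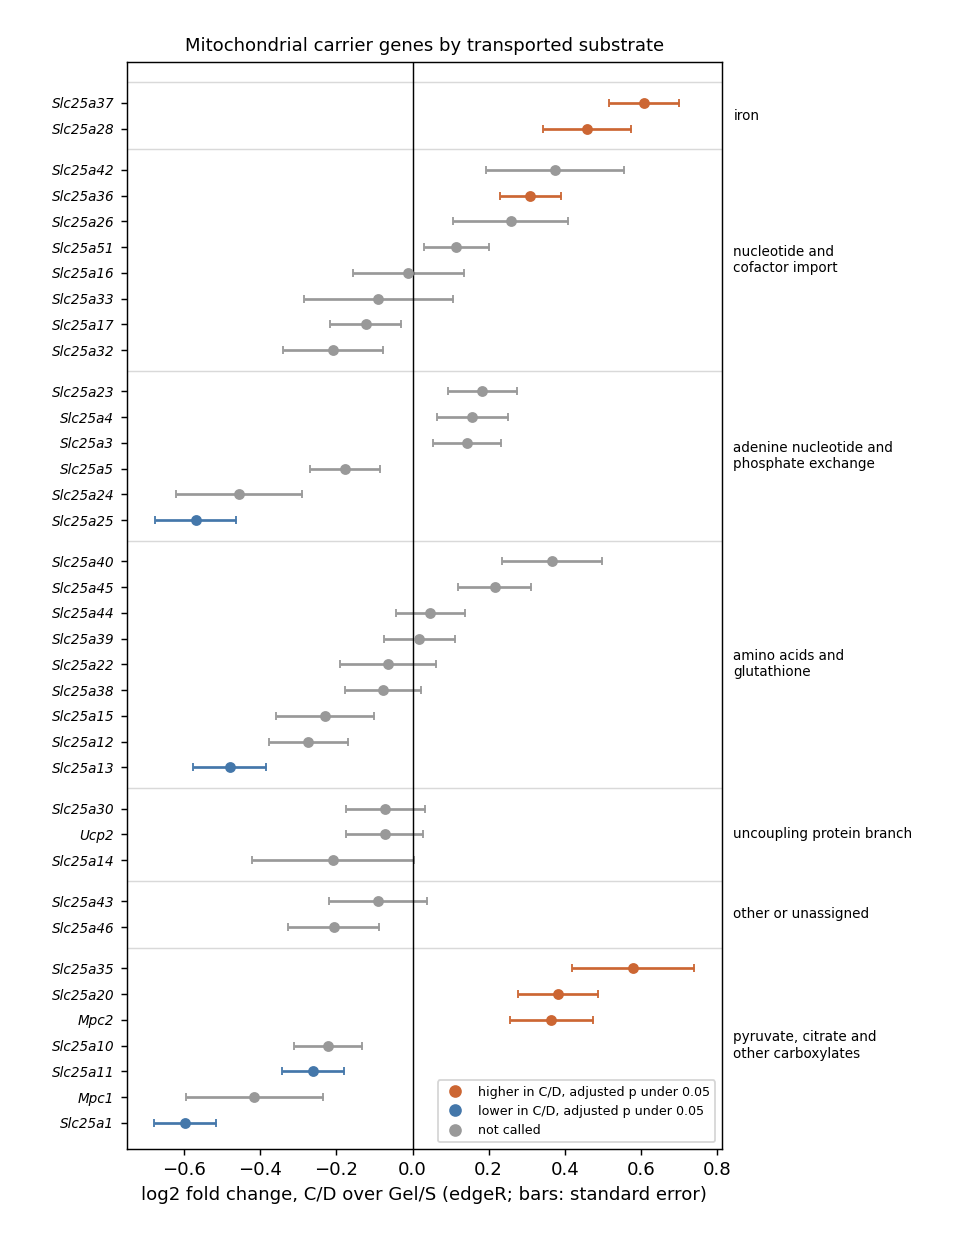
Log2 fold change (x axis, C/D over Gel/S) with its standard error for the members reported, grouped on the y axis by what they carry; coloured points passed an adjusted p under 0.05. Both iron carriers lie to the right at 0.46 and 0.61. The carboxylate group of 7 holds 3 risen and 2 fallen genes, beside 13.1% and 13.9% of all genes. Its values run from −0.60 for Slc25a1 to 0.58 for Slc25a35. Slc25a35 was placed there though its substrate is not settled.

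Both mitoferrins, the 2 members of the iron group, rose, beside 13.1% of all genes. Slc25a37, mitoferrin 1, which supplies iron for haem in red cell precursors and is also found in macrophages (chromosome 14, 69241848 to 69285112, minus strand, GRCm38), was at 24.4, 27.9 and 27.5 FPKM in Gel/S 1 to 3 and at 41.0, 39.3 and 37.9 FPKM in C/D 1 to 3. Every C/D library lay above every Gel/S library, and the spread within each group was small beside the gap. The log2 fold change was 0.61 (adjusted p by edgeR = 0.00109, SE 0.0917), the highest of the 38 members, and its call was kept when any 1 library was left out.

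Slc25a28, mitoferrin 2, the widely expressed paralog (chromosome 19, 43663822 to 43674881, minus strand), was at 30.1, 34.8 and 28.0 FPKM in Gel/S and at 46.9, 40.4 and 36.8 FPKM in C/D. The groups did not overlap, but Gel/S 2 and C/D 3 came within 2 FPKM of each other. The log2 fold change was 0.46 (adjusted p by edgeR = 0.0135, SE 0.115), and leaving out Gel/S 3 (adjusted p = 0.0696) or C/D 1 (0.0659) ended the call. It was also lost with limma on values rescaled to the same sum in each library (adjusted p = 0.0834), where Slc25a37 was the only member called higher. The summed level of the pair was 57.6 ± 4.50 FPKM in Gel/S and 80.7 ± 6.66 FPKM in C/D. Mitoferrin 2 held 53.7 ± 2.86% of that sum in Gel/S and 51.1 ± 2.09% in C/D, values that overlapped (exact 2-sided permutation p = 0.3).

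The promoter of Slc25a28, 250 bases before to 50 after the RefSeq start, is shown because this gene rose together with its paralog. It lies on chr19:43674832-43675131 (GRCm38.p6, minus strand), and capitals mark matches to a GC box (GGGCGG) or a CCAAT box (CCAAT) on either strand.
Slc25a28: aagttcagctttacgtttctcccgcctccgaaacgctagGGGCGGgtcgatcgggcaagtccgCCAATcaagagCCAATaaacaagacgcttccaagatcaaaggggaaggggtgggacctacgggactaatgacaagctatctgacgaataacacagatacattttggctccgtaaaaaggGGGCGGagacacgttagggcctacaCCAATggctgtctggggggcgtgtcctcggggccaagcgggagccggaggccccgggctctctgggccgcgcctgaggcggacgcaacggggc

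The citrate carrier fell more than any other member. Slc25a1, which exports citrate from the matrix so that the cytosol can make acetyl-CoA for fatty acids and sterols (chromosome 16, 17925223 to 17928219, minus strand), was at 47.5, 52.2 and 48.9 FPKM in Gel/S and at 31.9, 31.7 and 31.7 FPKM in C/D. The C/D libraries were nearly equal and all lay well under the lowest Gel/S library. The log2 fold change was −0.60 (adjusted p by edgeR = 0.000631, SE 0.0813), and the call was kept without any 1 library. Acly, the cytosolic enzyme that splits the exported citrate, had a log2 fold change of −0.89 in the same libraries.

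Slc25a11, which swaps oxoglutarate for malate and is a limb of the malate-aspartate shuttle (chromosome 11, 70644196 to 70647479, minus strand), was at 49.2, 45.6 and 45.3 FPKM in Gel/S and at 35.2, 39.5 and 38.7 FPKM in C/D. The groups were apart, and the log2 fold change was −0.26 (adjusted p by edgeR = 0.0334, SE 0.0816). That call was lost without Gel/S 3 or any single C/D library, with adjusted p of 0.0842, 0.115, 0.0767 and 0.0849. It overlaps Rnf167 on the other strand by 245 bases, and Rnf167 had the opposite sign (log2 fold change 0.29, adjusted p = 0.0719). Slc25a10, the dicarboxylate carrier, was at 17.9 to 18.7 FPKM in Gel/S and at 14.0 to 16.5 FPKM in C/D, without overlap, and did not pass (log2 fold change −0.22, edgeR adjusted p = 0.0857).

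Slc25a20 and Slc25a35 rose, both at low levels. Slc25a20, which carries acylcarnitines into the matrix for fatty acid oxidation (chromosome 9, 108662088 to 108684641, plus strand), was at 3.94, 4.03 and 3.64 FPKM in Gel/S and at 4.73, 5.13 and 4.83 FPKM in C/D (log2 fold change 0.38, edgeR adjusted p = 0.0198). Its groups did not overlap, and leaving out Gel/S 3 (adjusted p = 0.0944), C/D 2 (0.0841) or C/D 3 (0.0544) ended the call. Slc25a35, whose substrate is not settled (chromosome 11, 68968131 to 68974365, plus strand), was at 1.43, 1.67 and 1.77 FPKM in Gel/S and at 2.55, 2.30 and 2.22 FPKM in C/D. Its log2 fold change of 0.58 (adjusted p by edgeR = 0.0214, SE 0.162) lost its call without Gel/S 1 (adjusted p = 0.0502), C/D 1 (0.0736) or C/D 2 (0.0594).

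**Figure D2:**
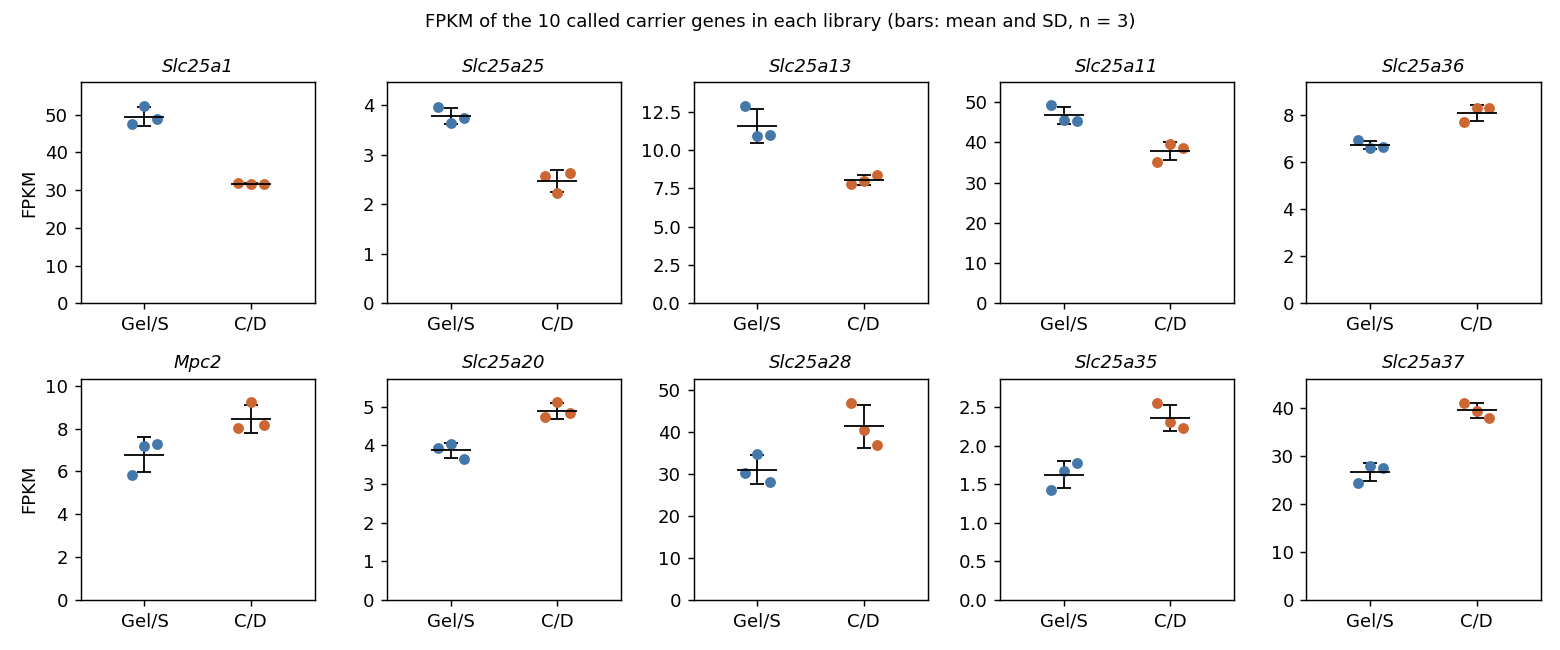
FPKM (y axis, from 0) of the 10 members that passed the test, with a point for each library of Gel/S and C/D and bars for the mean and SD. In all 10 panels the groups are apart, from Slc25a1 at 47.5 to 52.2 against 31.7 to 31.9 FPKM to Slc25a28, where the nearest libraries are at 34.8 and 36.8 FPKM.

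The pyruvate carrier works as a pair of MPC1 with MPC2, and its 2 genes had opposite signs. Mpc2 (chromosome 1, 165460637 to 165481214, plus strand) was at 5.83, 7.18 and 7.29 FPKM in Gel/S and at 8.01, 9.22 and 8.17 FPKM in C/D. All C/D libraries were above Gel/S, and Mpc2 rose (log2 fold change 0.36, adjusted p by edgeR = 0.0284, SE 0.109), a call lost without C/D 1, C/D 2 or C/D 3 (adjusted p of 0.0584, 0.130 and 0.0638). Mpc1 (chromosome 17, 8282904 to 8297661, plus strand) was at 3.94, 5.15 and 4.20 FPKM in Gel/S and at 3.14, 2.72 and 3.83 FPKM in C/D, lower in every C/D library, and did not pass (log2 fold change −0.42, adjusted p by edgeR = 0.103, SE 0.180).

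Mpc1 shares nearly its whole coding sequence with a processed pseudogene, and no source used here says how the counting split reads from that stretch. The entry of Mpc1 is listed at 2082 bases and that of the pseudogene at 330. Mpc1-ps (chromosome 12, 110858565 to 110858894, minus strand) is a copy of a spliced coding sequence of Mpc1. The annotated Mpc1 coding sequence compared, of 327 bases, was picked as the best match near the pseudogene's length, and 326 bases were the same. The longest annotated one has 501 bases and was matched over 258. The first 120 bases of the 327 and of Mpc1-ps are shown because they hold the only difference. It is written G41A with Mpc1 first and positions counted from the A of the start codon. Capitals mark the base that differs.
Mpc1: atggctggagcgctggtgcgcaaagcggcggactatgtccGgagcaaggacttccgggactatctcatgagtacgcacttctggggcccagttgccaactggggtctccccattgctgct
Mpc1-ps: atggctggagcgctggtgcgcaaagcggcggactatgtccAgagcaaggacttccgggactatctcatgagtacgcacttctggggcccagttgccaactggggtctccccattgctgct

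Mpc1-ps was given 263, 279 and 276 counts in Gel/S and 123, 194 and 158 counts in C/D, more than Mpc1 itself, which had 131, 173 and 136 and then 85, 91 and 120. Between 56.8% and 68.1% of the summed counts of gene and pseudogene thus stood under the pseudogene in each library, with C/D 3 lowest and C/D 2 highest. The pseudogene entry alone fell (49.9, 52.4 and 53.8 FPKM in Gel/S, 28.7, 36.6 and 31.8 FPKM in C/D, log2 fold change −0.64, edgeR adjusted p = 0.00472), with groups that did not overlap. With its counts added to Mpc1, an alternative chosen after seeing the data, Mpc1 had a log2 fold change of −0.56 and passed (edgeR adjusted p = 0.00447). Without those counts Mpc1 was called with limma on log2(TPM + 1) and with no filter on low levels, and not under the other alternatives. Mpc1 held 39.6 ± 2.68% of the summed FPKM of Mpc1 and Mpc2 in Gel/S and 27.6 ± 4.61% in C/D, without overlap (exact 2-sided permutation p = 0.1). The listed length of Mpc2 is 7344 bases, far more than its coding part, which lowers its FPKM, so the order of their levels says little.

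**Figure D3:**
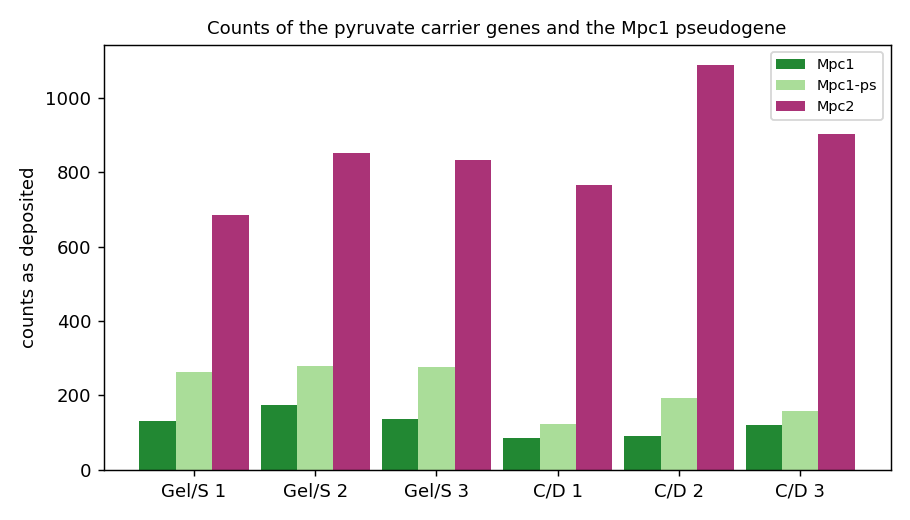
Deposited counts (y axis) of Mpc1, its pseudogene Mpc1-ps and Mpc2 in each of the 6 libraries (x axis). Mpc1-ps has more counts than Mpc1 in every library, 123 to 279 against 85 to 173, and both are lower in C/D, while Mpc2 has 684 to 851 counts in Gel/S and 765 to 1089 in C/D.

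Among carriers of amino acids and glutathione, 1 of 9 tested genes fell (13.9% of all genes) and none rose (13.1% of all genes), while 8 did not pass. The gene that fell was Slc25a13, the aspartate/glutamate carrier also called citrin (chromosome 6, 6041218 to 6217173, minus strand), at 12.9, 10.9 and 11.0 FPKM in Gel/S and 7.77, 8.01 and 8.38 FPKM in C/D. All C/D libraries were lower, with a log2 fold change of −0.48 (adjusted p by edgeR = 0.00451, SE 0.0960), and the call was kept without any 1 library. Its paralog Slc25a12, or aralar, had 13.2, 9.95 and 10.9 FPKM in Gel/S and 9.52, 9.19 and 8.64 FPKM in C/D, also without overlap. It did not pass (log2 fold change −0.27, edgeR adjusted p = 0.0681) and was called without Gel/S 2 and with no filter on low levels. Aralar held 49.4 ± 1.57% of the summed FPKM of the pair in Gel/S and 53.1 ± 2.17% in C/D (exact 2-sided permutation p = 0.1).

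Glutathione is brought into the matrix by SLC25A39 and SLC25A40. Slc25a39 was at 65.6, 74.3 and 72.2 FPKM in Gel/S and at 74.7, 66.4 and 67.4 FPKM in C/D. The groups overlapped throughout (log2 fold change 0.02, adjusted p by edgeR = 0.904, SE 0.0931), and the sign of this small value turned under 7 of 17 alternatives. The scarcer Slc25a40 lay at 1.88 to 2.27 FPKM in Gel/S and at 2.31 to 3.06 FPKM in C/D, and did not pass (log2 fold change 0.37, edgeR adjusted p = 0.0577). Without Gel/S 1, Gel/S 2 or C/D 2 it was called, and also with a correction for gene length. Slc25a45, whose role in macrophages is not settled, was at 26.9, 32.1 and 32.6 FPKM in Gel/S and 34.4, 35.8 and 33.3 FPKM in C/D, and did not pass (log2 fold change 0.22, edgeR adjusted p = 0.113). The glutamate carrier Slc25a22, the ornithine carrier Slc25a15, the glycine carrier Slc25a38 and the branched-chain amino acid carrier Slc25a44 had log2 fold changes from −0.23 to 0.05.

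The promoters of Slc25a1 and Slc25a13 are shown because they are the pair of fallen carriers whose windows both hold an E-box (CACGTG), the letters bound by MYC, MAX and USF. They lie on chr16:17928170-17928469 and chr6:6217124-6217423 (GRCm38.p6, both minus strand) and cover 250 bases before to 50 after the RefSeq start. Capitals mark matches to the E-box, GC box or CCAAT box on either strand, and the Slc25a13 window held no GC box.
Slc25a1: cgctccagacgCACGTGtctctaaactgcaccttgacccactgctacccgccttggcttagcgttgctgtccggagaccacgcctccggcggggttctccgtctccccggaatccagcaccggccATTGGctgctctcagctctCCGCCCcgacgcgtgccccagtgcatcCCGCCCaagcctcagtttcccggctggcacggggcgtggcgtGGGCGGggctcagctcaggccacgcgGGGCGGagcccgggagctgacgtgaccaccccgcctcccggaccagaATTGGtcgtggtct
Slc25a13: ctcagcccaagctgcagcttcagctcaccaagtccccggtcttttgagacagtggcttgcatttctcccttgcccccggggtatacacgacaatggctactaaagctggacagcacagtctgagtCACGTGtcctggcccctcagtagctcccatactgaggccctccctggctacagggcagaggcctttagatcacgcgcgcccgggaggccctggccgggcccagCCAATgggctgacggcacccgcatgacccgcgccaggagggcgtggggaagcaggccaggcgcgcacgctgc

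Of the 38 members, 30 had a promoter in the RefSeq table, and the E-box was found in 6 of these (20.0%), against 12.3% of 8230 tested genes with a promoter and 8.09% of all 27025 genes there. It was in 2 of 4 fallen and in 1 of 4 risen members with a window. The GC box was in 28 of 30 members, against 69.8% of tested genes and 38.2% of all genes, and the CCAAT box in 16 of 30 (53.3%, against 43.6% and 41.1%). The cAMP response element (TGACGTCA) was in Slc25a25 and Slc25a36, 1 fallen and 1 risen gene (6.67% of members, against 3.82% of tested and 2.03% of all genes), the sterol response element (TCACNCCAC) in Ucp2 alone (3.33%, against 1.40% and 1.44%), and the NRF1 site, a palindrome, in none of the 30 (against 2.61% and 1.07%). These motifs were searched on both strands and picked after the results were known, genes with several starts were counted if any window matched, and a match is a description of letters only.

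Carriers of adenine nucleotides and phosphate had the highest summed FPKM of the family's groups, and 1 of 6 fell, beside 13.9% of all genes. Slc25a5, or ANT2, which exchanges ATP for ADP in dividing cells (X chromosome, 36795651 to 36798807, plus strand), had the highest FPKM of the members, at 402, 412 and 416 FPKM in Gel/S and 326, 357 and 373 FPKM in C/D. All C/D libraries were lower, yet it did not pass (log2 fold change −0.18, adjusted p by edgeR = 0.165, SE 0.0921). It passed with limma on TPM (adjusted p = 0.0438), with a correction for gene length (0.0262) and in the authors' deposited table (0.0491). It made up 34.4 ± 0.471% of the family's summed FPKM in Gel/S and 31.3 ± 1.46% in C/D (exact 2-sided permutation p = 0.1). FPKM divides by the listed length, which is 1646 bases for Slc25a5 and 6989 for Ucp2. Ucp2 had more counts over the 6 libraries, 74032 beside 57854, so the rank and share of Slc25a5 depend on those lengths. The 7 pseudogene entries that match Slc25a5 hold 374 counts beside its 57854. How reads with more than 1 match were counted is not given, so what Slc25a5 lost to its copies is not known.

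Slc25a4, or ANT1, the form of heart and muscle, was at 96.0, 106 and 109 FPKM in Gel/S and 104, 113 and 119 FPKM in C/D, and did not pass (log2 fold change 0.16, adjusted p by edgeR = 0.224, SE 0.0935). Its groups overlapped, but its share of the ANT pair did not, at 19.3, 20.5 and 20.7% in Gel/S and 24.3, 24.1 and 24.2% in C/D, with means of 20.2 ± 0.775% and 24.2 ± 0.114% (exact 2-sided permutation p = 0.1). Slc25a3, the phosphate carrier that supplies ATP synthase, was at 85.7, 92.7 and 88.1 FPKM in Gel/S and 93.8, 94.1 and 98.1 FPKM in C/D, just apart, and did not pass (log2 fold change 0.14, adjusted p by edgeR = 0.243, SE 0.0884).

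The calcium-regulated ATP-Mg/phosphate carriers had both signs. Slc25a25 (chromosome 2, 32414487 to 32451445, minus strand) was at 3.97, 3.65 and 3.74 FPKM in Gel/S and 2.57, 2.22 and 2.64 FPKM in C/D, and fell with groups far apart (log2 fold change −0.57, adjusted p by edgeR = 0.00336, SE 0.107). The call was kept without any 1 library. It overlaps Naif1 on the other strand by 989 bases, and Naif1 had a log2 fold change of −0.22. Slc25a24 had 17.5, 9.88 and 13.5 FPKM in Gel/S and 8.47, 10.2 and 10.2 FPKM in C/D. Its Gel/S libraries were spread widely with Gel/S 2 down among C/D, and it did not pass (log2 fold change −0.46, adjusted p by edgeR = 0.0592, SE 0.165). It was called without Gel/S 2, by DESeq2 (adjusted p = 0.0287), with filterByExpr and with no filter on low levels. Slc25a23 had the other sign (log2 fold change 0.18, adjusted p = 0.148).

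**Figure D4:**
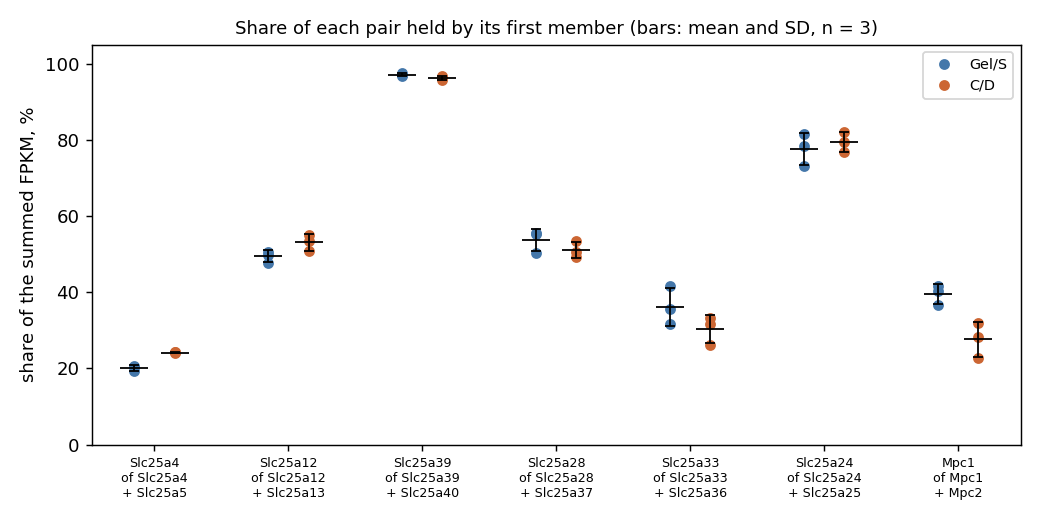
Share (y axis, percent of the summed FPKM) held by the first gene of each of 7 pairs (x axis) in every library, with the mean and SD of each group. Slc25a4 goes from 20.2% to 24.2% of the ANT pair, while the mitoferrin pair overlaps at 53.7% and 51.1%. Mpc1 goes from 39.6% to 27.6% of the summed FPKM of Mpc1 and Mpc2, which leaves out the counts under Mpc1-ps.

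For the 7 pairs compared, the smallest 2-sided exact p was 0.1 and the adjusted value 0.175, the lowest that this design allows with 4 pairs at that p, so no share can pass 0.05. Shares did not overlap for the ANT, aralar, glutathione and pyruvate pairs. Slc25a39 held 97.1 ± 0.383% and 96.3 ± 0.557% of its pair. Slc25a33 held 36.2 ± 5.03% and 30.3 ± 3.70% of the pyrimidine nucleotide pair, and Slc25a24 held 77.6 ± 4.29% and 79.4 ± 2.70% beside Slc25a25, both with overlap.

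Among carriers of other nucleotides and cofactors, 1 of 9 rose (13.1% of all genes) and 8 did not pass. Slc25a36, which brings in pyrimidine nucleotides for mitochondrial DNA and RNA (chromosome 9, 97074961 to 97111157, minus strand), was at 6.93, 6.60 and 6.65 FPKM in Gel/S and 7.70, 8.28 and 8.30 FPKM in C/D. The groups were apart (log2 fold change 0.31, adjusted p by edgeR = 0.0145, SE 0.0792), and leaving out Gel/S 3 (adjusted p = 0.0720), C/D 2 (0.0703) or C/D 3 (0.0638) ended the call. An antisense gene, Gm16185, overlaps it by 3285 bases and rose (log2 fold change 0.95, adjusted p = 0.00501), with 463 counts beside 6511, and whether the counting used strand is not given, so their reads cannot be told apart. Slc25a42, which carries coenzyme A, had the highest fold change among members that did not pass (log2 fold change 0.38, edgeR adjusted p = 0.142). Its mean was 0.958 FPKM in Gel/S and 1.21 in C/D. It thus met the limit of 1 FPKM only through C/D, which favours a positive fold change. The carriers of folate (Slc25a32), NAD (Slc25a51), S-adenosylmethionine (Slc25a26) and the peroxisomal carrier Slc25a17 had log2 fold changes from −0.21 to 0.26.

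None of 3 genes of the uncoupling protein branch passed, beside 27.0% of all genes. Ucp2, the uncoupling protein of immune cells, which exchanges small dicarboxylates and phosphate (chromosome 7, 100493337 to 100502020, plus strand), was at 109, 131 and 119 FPKM in Gel/S and 112, 111 and 109 FPKM in C/D. The groups overlapped, with Gel/S 2 highest and Gel/S 3 also above all C/D libraries, and the log2 fold change was −0.07 (adjusted p by edgeR = 0.611, SE 0.101). Without Gel/S 2 its sign turned (0.0045). Slc25a14 and Slc25a30 had log2 fold changes of −0.21 and −0.07. Slc25a46, which sits in the outer membrane, and Slc25a43 did not pass either (−0.21 and −0.09).

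The 14 members under 1 FPKM were not tested. Of these, 8 had some counts, with sums over the 6 libraries from 2 to 327: Slc25a53, Slc25a18, Slc25a47, Slc25a2, Slc25a34, Ucp3, Slc25a29 and Slc25a54. Ucp1, the uncoupling protein of brown fat, Slc25a31, the ANT of sperm, Slc25a21, Slc25a27, Slc25a41 and Slc25a48 had no count in any library, which at this depth allows up to a total of 3 counts over all libraries (counting error only). Just inside the limit were Slc25a35 at 1.99, Slc25a26 at 1.63 and Slc25a42 at 1.08 FPKM, and just outside it Slc25a18 at 0.549, Slc25a53 at 0.451 and Slc25a47 at 0.316 FPKM. Levels of the tested members ran up to 381 FPKM with a median of 9.28, 5 were at 50 FPKM or more and 20 were under 10.

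Enzymes that work on either side of the carriers included several that fell. Of 12 tested shuttle enzymes 5 fell and 7 did not pass, with none that rose (median log2 fold change −0.28, against 0.01 for all genes, of which 13.9% fell and 13.1% rose). Among these were Acly, the malic enzyme Me2 (−0.69), the mitochondrial aspartate aminotransferase Got2 (−0.52) and Gpd2 (−0.48), the mitochondrial enzyme of the glycerol phosphate shuttle, named after its value was seen. Got2, the matrix partner of citrin and aralar in the malate-aspartate shuttle, went from 35.3 ± 5.73 to 23.9 ± 0.673 FPKM (edgeR adjusted p = 0.00481). The Gpd2 call was lost without C/D 2 (adjusted p = 0.0647), and those of Acly, Me2 and Got2 were kept without any 1 library.

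Of 11 tested genes of the pyruvate dehydrogenase complex and its regulators, which use the pyruvate that Mpc1 and Mpc2 bring in, 1 rose and 2 fell, with 8 that did not pass (median log2 fold change −0.14), near the 13.1% and 13.9% of all genes. Pdk2, a kinase that inhibits the complex, rose from 1.71 ± 0.243 to 2.91 ± 0.562 FPKM (log2 fold change 0.81, edgeR adjusted p = 0.0102). The subunit gene Pdha1 (−0.41) and the kinase Pdk1 (−0.30) fell, and both calls were lost without Gel/S 3 or any single C/D library (highest adjusted p of 0.109 and 0.104). The phosphatase gene Pdp1 did not pass (0.26, edgeR adjusted p = 0.0851).

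Of 12 genes that build iron-sulphur clusters or haem, which draw on the iron that mitoferrins carry, 3 rose, 2 fell and 7 did not pass (median log2 fold change 0.03), beside 13.1% risen and 13.9% fallen over all genes. Hscb, a co-chaperone of cluster transfer, rose from 43.1 ± 3.53 to 61.5 ± 3.54 FPKM (log2 fold change 0.56, edgeR adjusted p = 0.00238), and the haem enzyme Ppox (0.57) and the cluster scaffold Iscu (0.38) rose too. The late cluster factor Isca1 (−0.47) and the haem enzyme Cpox (−0.51, named after its value was seen) fell. Ppox lost its call without C/D 1 (adjusted p = 0.0508), Iscu without Gel/S 3 or any single C/D library (highest 0.111), and Cpox without any of 4 libraries, that is all but Gel/S 2 and C/D 3 (highest 0.141).

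The route that inserts carriers into the inner membrane, through TIM22, had 1 risen, 1 fallen and 10 other genes among 12 (median log2 fold change 0.08), against 13.1% and 13.9% of all genes. Timm8b rose from 124 ± 19.3 to 195 ± 26.3 FPKM (0.69, edgeR adjusted p = 0.00340) and its paralog Timm8a1 fell from 22.2 ± 1.36 to 14.3 ± 3.18 FPKM (−0.58, edgeR adjusted p = 0.0120), both small chaperones of the intermembrane space. The carrier receptor gene Tomm70a (−0.28, adjusted p = 0.0547) and Timm10b (0.58, adjusted p = 0.0680) did not pass. Of 18 other mitochondrial channels and transporters 2 rose, 3 fell and 13 did not pass (median −0.10), near the same shares of all genes. The sodium/calcium exchanger Slc8b1 (0.35) and the calcium uniporter part Smdt1 (0.31) rose, and among those that fell were the outer membrane channel Vdac1 (−0.29) and the inhibitory uniporter subunit gene Mcub (−0.32, named after its value was seen). Slc8b1 lost its call without C/D 2 (adjusted p = 0.0536). Smdt1 and Vdac1 lost theirs without any library except Gel/S 2, and Mcub without any except C/D 1 (highest adjusted p of 0.115, 0.146 and 0.180). With the replicate number as a block, 1 rose and 1 fell in that list, and 1 in place of 2 fell among the iron genes.

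The authors' deposited table, with their own test, listed 11 of the 38 members at an adjusted p under 0.05, 4 higher and 7 lower in C/D. It shared 8 calls with edgeR, all in the same direction. Slc25a24, Slc25a12 and Slc25a5 were called only in the authors' deposited table, where their adjusted p was 0.0202, 0.0411 and 0.0491. Slc25a20 and Slc25a35 were called only by edgeR and had 0.0610 and 0.0522 in the authors' deposited table.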

How the data were processed

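Messenger RNA of 3 Gel/S and 3 C/D libraries was sequenced, per the labels' protocols. Raw counts per gene and FPKM were made by the authors, per the file headers; the library totals implied by the FPKM were 0.976 to 1.02 times the summed counts. The authors' group means of scaled counts (signal), log2 fold changes of Gel/S over C/D, and p-values with adjusted p-values are in the deposited table. Per the submitters' processing notes the build was GRCm38 (mm10). Not given in the sources used here are the authors' test, aligner, counter, annotation and use of strand; how reads with more than 1 match were counted affects genes with near copies. Of the 52 members, 49 have the same coordinates in GENCODE M21.

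Date-like symbols (27) were restored from gene IDs, and the counts of 100 repeated symbols were summed; 0 entries named no gene. The edgeR 4.0.16 quasi-likelihood test with TMM factors (R 4.3.3) was fitted on 11708 genes with a mean FPKM of at least 1. An SE was taken as the size of the log2 fold change divided by the root of its F value. Alternatives used DESeq2 1.42.0 and limma 3.58.1. Pseudogenes were matched to coding sequences by blastn at 90% identity over 200 bases or more. The pipeline was tested on simulated counts. By rule every tested member is given or counted, with values per library for the members past the threshold, the 6 most abundant others, Mpc1, Mpc2 and Ucp2, and up to 4 genes per partner list are named by smallest p. Values per library of Slc25a10, Slc25a12, Slc25a24 and Slc25a40 were added after they were seen. Members and lists were chosen with earlier results of these data known. Planned protein sequences are not shown. Promoters are from RefSeq (GRCm38.p6). Results of a few genes are not reported here; counts and medians include them.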

Additional observations from a re-analysis of the deposited data

How the results depend on the processing

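Of the 10 member calls, 10 were kept with RLE factors, with no scaling factor, with DESeq2, with filterByExpr, with a gene length trend as offset and with pseudogene counts added, 9 with limma on log2(FPKM + 1) or log2(FPKM + 0.1) (Mpc2 lost), 8 with no filter on low levels and 5 with limma on log2(TPM + 1) (Mpc2, Slc25a20, Slc25a28, Slc25a35 and Slc25a36 lost). Slc25a1, Slc25a13, Slc25a25 and Slc25a37 were called under all 17 alternatives. The members gave 1 risen gene with limma on TPM, where their median was −0.19, and 7 fallen with no filter. Leaving out 1 library gave 3 to 7 risen and 3 to 6 fallen members, with 3 risen without Gel/S 3 or any single C/D library, and medians from −0.07 to −0.02. Over all genes, 1020 rose with limma on log2(FPKM + 1), 1008 with log2(FPKM + 0.1) and 633 with TPM, and leaving out 1 library gave 887 to 1989 risen and 876 to 2089 fallen. The cause of these differences was not tested.

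Fold changes of 46 genes, which do not include every member, were compared across the alternatives. Among these, signs turned only for the uncalled Slc25a39 and Ucp2. Slc25a39 was at −0.0237 with limma on log2(FPKM + 1), −0.0240 with log2(FPKM + 0.1), −0.114 with TPM, −0.0108 with filterByExpr and −0.0290 with no filter. Leaving out 1 library gave −0.0414 (without Gel/S 1; −0.0411 without C/D 1) to 0.0609 for Slc25a39 and −0.143 to 0.00451 (without Gel/S 2) for Ucp2. Differences in pair shares without 1 library, in percentage points of C/D minus Gel/S, ran from 3.59 to 4.31 for Slc25a4, 2.68 to 4.83 for Slc25a12, −0.949 to −0.444 for Slc25a39, −4.29 to −1.72 for Slc25a28, −8.20 to −3.21 for Slc25a33, −14.1 to −9.50 for Mpc1 and −0.497 (without Gel/S 2) to 3.75 for Slc25a24.

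Correlations of deviations from the group means were −0.06, −0.06 and 0.05 between libraries of the same replicate number, 1 to 3. Between different numbers they ran from −0.09 to 0.13. From 3 libraries a group these values cannot show whether the samples were paired. With the replicate number as a block, 6 members rose and 3 fell, with Slc25a11 lost (−0.26, adjusted p = 0.0659), and 1242 of all genes rose and 1302 fell. Depth and spread gave the members standard errors of 0.0792 to 0.212 on the log2 scale. Counts in the partner lists ran from 1 to 4 risen and 1 to 2 fallen genes for import over all alternatives, 0 to 2 and 0 to 5 for other channels, 0 to 1 and 4 to 7 for shuttle enzymes, 0 to 3 and 0 to 2 for pyruvate dehydrogenase, and 1 to 5 and 1 to 2 for iron.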
